A study of Mus musculus with 4 samples.

Results

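Mpo-positive myeloid-primed multipotent progenitors were taken here as the bone marrow cells of the lineage-negative, Sca-1-positive, Kit-positive sort that held at least 5 unique molecular identifiers (UMIs, counted transcripts) of Mpo, fewer than 5 of Elane, fewer than 3 of Irf8 and none of Ms4a3, Pf4, Gata1, Dntt or Il7r. Each cell also had to show at least 1000 genes, at most 10% mitochondrial UMIs, and a leading hashtag of at least 10 UMIs and at least 3 times the next. The rule found 3124 cells among 33042 that passed the gene, mitochondrial and hashtag filters (9.45%, exact 95% interval 9.14 to 9.78), out of 38266 barcodes. They are called member cells below, and the other 29918 are called the other kept cells. The 8 genes of the rule chose the cells, so levels of any gene in the member cells against other cells are given as a description and carry no test.

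The cells came from 2 male Tppp3CreER LSLTdTomato mice, 3 months old, which had received tamoxifen on postnatal days 0 and 3. In such mice a tamoxifen-inducible Cre recombinase, produced where Tppp3 is active, removes a stop cassette ahead of the red fluorescent protein tdTomato, so that cells with Cre activity at that time and their descendants stay red. The labels call the sorted population haematopoietic stem cells and define it by the Lin-Sca+Kit+ gate. Each mouse gave 1 tube of tdTomato-positive cells and 1 of tdTomato-negative cells, marked with 4 hashtag antibodies, and the cells of each tube were split between 2 droplet chemistries, 10x GEM-X and 10x v3.1. Both gates carry the same alleles and the same treatment. The labels also describe the positive and negative cells as each sorted into a single tube, so the separation of mice rests on the hashtags. With 2 mice, the edgeR p-values for the gates draw on a spread between these 4 tubes that is shared across genes. A small p-value therefore does not show that the 2 mice agreed.

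Myeloperoxidase, the product of Mpo, is the haem enzyme of the azurophilic granules with which neutrophils and monocytes make hypochlorous acid. Its gene is among the earliest granule genes switched on in multipotent progenitors, under the transcription factors C/EBPα, PU.1 and RUNX1, well before Elane and the secondary granule genes. Multipotent progenitors that lean to the myeloid side keep Kit, Cd34 and a part of the stem cell programme, lose long-term repopulating ability and divide more than stem cells do. Ccl9 encodes a chemokine of myeloid cells, and Slc24a3 a potassium-dependent sodium/calcium exchanger.

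Mpo (ENSMUSG00000009350) lies at chr11:87793581-87804413 on the plus strand, Ccl9 (ENSMUSG00000019122) at chr11:83572919-83578636 on the minus strand and Slc24a3 (ENSMUSG00000063873) at chr2:145167754-145642166 on the plus strand, all protein-coding in the GENCODE annotation of GRCm38 (mm10). The 250 bases before the RefSeq starts of Mpo and Ccl9 (GRCm38.p6) are shown 5′ to 3′ because these genes mark the cells, with matches to the PU.1 letters GAGGAAG in capitals. By GENCODE the Mpo gene begins within the stretch shown for it, so part of that stretch lies inside the annotated gene.
Mpo (chr11:87793534-87793783, plus strand): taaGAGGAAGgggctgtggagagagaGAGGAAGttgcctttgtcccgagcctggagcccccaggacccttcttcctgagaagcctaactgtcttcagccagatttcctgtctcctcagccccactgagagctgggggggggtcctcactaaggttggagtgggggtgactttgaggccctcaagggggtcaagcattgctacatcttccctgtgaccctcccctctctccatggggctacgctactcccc
Ccl9 (chr11:83578637-83578886, minus strand): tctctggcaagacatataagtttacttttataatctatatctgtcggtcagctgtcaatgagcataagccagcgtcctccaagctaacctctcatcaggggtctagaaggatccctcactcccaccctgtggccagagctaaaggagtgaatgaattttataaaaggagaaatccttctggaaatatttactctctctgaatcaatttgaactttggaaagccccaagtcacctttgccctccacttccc
In the Mpo sequence the PU.1 letters began at bases 4 and 27 from its 5′ end. Both strands of a 300-base window from 250 bases before to 50 after each start were searched for GAGGAAG, for TTGCNNAA (C/EBP) and for TGTGGT (RUNX); the 3 motifs were each counted with any overlap allowed. Among all 27025 promoters, 13.5% held the PU.1 letters, 10.8% the C/EBP letters and 16.9% the RUNX letters. Of the 13 genes highest in the member cells that had a promoter in the table, 1 held the PU.1 letters, 2 the C/EBP letters and 4 the RUNX letters. Of the 9 lowest, 3 held the PU.1 letters, 1 the C/EBP letters and 4 the RUNX letters. A match is only a run of letters in this window.

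The 2 matrices held 20511 barcodes with GEM-X and 17755 with v3.1, and no barcode occurred in both. Member cells had a median of 12816 UMIs and 4345 genes, against 8285 UMIs and 3413 genes in the other kept cells. At 3000 UMIs per cell the median number of genes was 1700 in both. Summed over member cells, a tube held 1449914 to 11434792 UMIs per chemistry. Levels are given as CPM, the usual depth-scaled count unit, over all gene UMIs of such a sum.

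At the edge of the rule, 571 cells held 5 UMIs of Mpo and 425 held 6, while 751 cells with 4 and 1017 with 3 met every other condition. Members held 5 to 99 UMIs of Mpo, with a median of 8 and quartiles of 6 and 13. Elane, the gene of neutrophil elastase, gave a UMI in 10.5% of them and Irf8, the transcription factor of monocyte and dendritic fate, in 29.2%. Flt3, the cytokine receptor of multipotent and lymphoid progenitors, gave one in 87.5%. Cells that failed only through 1 UMI of another lineage's gene numbered 512 for Dntt, 373 for Ms4a3, 159 for Pf4, 34 for Gata1 and 10 for Il7r. A further 662 cells failed only through 2 or more UMIs of Dntt, the terminal transferase of lymphoid precursors.

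Mpo UMIs were spread widely over the sort. At least 5 UMIs were present in 6540 kept cells (19.8%, median depth 8608 UMIs), in 4.25% of 848 cells with at least 2 UMIs of the megakaryocyte gene Pf4 (median depth 10844 UMIs) and in 22.1% of 990 cells with both Dntt and Il7r UMIs (13551 UMIs). How much of the Mpo signal in any cell was free RNA from broken cells was not tested.

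The labelled cell type was checked against its markers. Kit averaged 300.4 CPM in member cells and 336.0 CPM in the other kept cells. Ly6a, the gene of Sca-1, averaged 28.7 CPM in member cells and 66.3 CPM in the other kept cells. The defining T-cell genes Cd3e, Trac and Cd8a, the B-cell gene Ms4a1, the dendritic gene Xcr1 and the mast cell gene Cma1 had no UMI in any member cell. Other genes of these lists were present. Cpa3 averaged 61.5 CPM in member cells and 34.5 CPM in the other kept cells, and Mcpt8, a basophil protease, averaged 13.6 CPM in member cells and 5.93 CPM in the other kept cells. Cd79b, of the B-cell receptor, averaged 25.5 CPM in member cells and 28.5 CPM in the other kept cells. Cd34 averaged 443.9 CPM in member cells and 360.2 CPM in the other kept cells, and did not set the member cells apart from Irf8-high cells, which are described below.

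In mouse 1 the member cells made up 414 of 3900 kept cells of the tdTomato-positive tube (10.6%, exact 95% interval 9.67 to 11.6) and 1325 of 12762 of the tdTomato-negative tube (10.4%, 9.86 to 10.9). In mouse 2 they made up 336 of 3945 cells of the tdTomato-positive tube (8.52%, 7.66 to 9.43) and 1049 of 12435 of the tdTomato-negative tube (8.44%, 7.95 to 8.94). The differences were 0.23 and 0.08 percentage points, with a two-sided exact permutation p of 0.667, where 2 tubes against 2 cannot go below 0.33. This permutation did not keep the tubes paired by mouse, so the difference between the mice enters its p. Both tubes of mouse 1 lay above both tubes of mouse 2. These intervals cover counting error only. Where cells were first thinned to 3000 UMIs and members needed at least 2 UMIs of Mpo, the differences were 0.987 and 1.433 points. The shares were then 15.3% and 12.6% in the tdTomato-positive tubes, against 14.3% and 11.2% in the tdTomato-negative tubes, again with an exact permutation p of 0.667.

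Within chemistries the sign of the small gate difference was not stable. With GEM-X the shares were 11.7% and 9.40% in the tdTomato-positive tubes of mouse 1 and mouse 2, against 11.1% and 9.69% in the tdTomato-negative tubes. With v3.1 they were 9.27% and 7.43% in the tdTomato-positive tubes, against 9.53% and 6.90% in the tdTomato-negative tubes. The share over all tubes was 10.4% with GEM-X (1907 of 18294 cells) and 8.25% with v3.1 (1217 of 14748 cells), and it was higher with GEM-X in all 4 tubes. The number of Mpo UMIs a cell can show depends on its depth, which also differed: member cells had a tube median of 12489 to 13992 UMIs with GEM-X and 10602 to 12966 with v3.1.

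**Figure D1:**
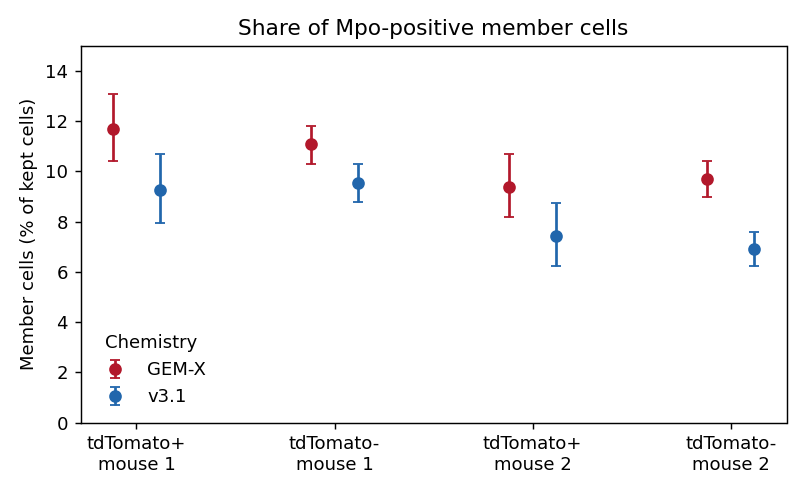
Share of member cells among kept cells (percent, vertical axis) in each tube, with GEM-X in red and v3.1 in blue; bars are exact 95% intervals. The 2 gates of a mouse overlap within each chemistry, and the GEM-X point lies above the v3.1 point in all 4 tubes.

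Against the other kept cells, the member cells showed higher levels of replication and ribosome biogenesis genes and lower levels of stem cell genes, while granule genes and myeloid cytokine receptors had members on both sides. Levels were compared over 8 pairs of sums (4 tubes in 2 chemistries) as log2 ratios of CPM + 1, and a gene was counted as higher or lower when all 8 ratios had the same sign. Of 7672 genes with at least 20 CPM in the higher set, 1304 (17%) were higher and 1482 (19.3%) lower in the member cells, and the median ratio of all was -0.01.

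Mpo itself, the gene of the rule, had 913.4 and 818.8 CPM in the member cells of the tdTomato-positive tubes and 793.4 and 772.0 CPM in those of the tdTomato-negative tubes. In the other kept cells it had 781.5 and 285.2 CPM in the tdTomato-positive tubes and 431.1 and 288.6 CPM in the tdTomato-negative tubes. The high value of the other kept cells in the tdTomato-positive tube of mouse 1 stood beside 567.2 CPM of Elane there, against 126.4 to 193.8 CPM in the other 3 tubes. Elane averaged 10.4 CPM in the member cells.

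Among the genes with the largest positive ratios was Rab44 (chr17:29114145-29148980), a large Rab GTPase of granule exocytosis in mast cells. It had 68.0 and 60.1 CPM in the member cells of the tdTomato-positive tubes and 63.1 and 63.2 CPM in those of the tdTomato-negative tubes, against 20.4 to 33.5 CPM in the other kept cells. Its median log2 ratio was 1.29 over the 8 sums, with a range of 0.94 to 1.68. The summed level of the member cells was the higher in every tube, and levels of single cells were not compared. Cd48, a surface antigen that separates committed multipotent progenitors from stem cells, averaged 192.3 CPM in member cells and 102.7 CPM in the other kept cells (median log2 ratio 0.94).

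The further markers named for these cells behaved alike in all tubes. Slc24a3 had 208.1 and 233.0 CPM in the member cells of the tdTomato-positive tubes and 204.2 and 227.2 CPM in those of the tdTomato-negative tubes, against 108.8 to 110.8 CPM in the other kept cells (median log2 ratio 0.99). Ccl9 had 103.5 and 81.8 CPM in the member cells of the tdTomato-positive tubes and 96.5 and 86.4 CPM in those of the tdTomato-negative tubes, against 35.4 to 57.1 CPM in the other kept cells (0.96). The spread of Slc24a3 over tubes was narrow in both sets, while Ccl9 was higher in mouse 1 than in mouse 2 in both.

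Cebpa, the transcription factor that opens granulocyte and monocyte fate, averaged 22.4 CPM in member cells and 12.7 CPM in the other kept cells (median log2 ratio 0.83, range 0.34 to 1.31). Also high were Dscam, a cell adhesion molecule (1.19), Gna14, a G protein alpha subunit (1.09), Bex6 (0.81), Aunip, which binds the mitotic kinase Aurora A (0.77), Ubash3a, a suppressor of antigen receptor signalling (0.76), Clec4e, the C-type lectin receptor Mincle (0.75), Cpa3, a carboxypeptidase of mast cell granules (0.75), Atp8b4, a flippase (0.72), and Pclaf, a partner of the replication clamp PCNA (0.72).

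The lowest ratios belonged to genes of other lineages. Ebf1, the transcription factor of B-cell commitment, averaged 0.373 CPM in member cells and 51.3 CPM in the other kept cells (median log2 ratio -5.33). Car1, a carbonic anhydrase of red cell precursors, averaged 1.32 CPM in member cells and 71.5 CPM in the other kept cells (-4.78). The neutrophil genes Camp, S100a9 and S100a8 had ratios of -3.87, -3.85 and -3.63, and Ly6c2, which has a close copy in Ly6c1 that may share its reads, had -3.20. Cells carrying the excluded genes are in the other kept cells by construction, and each such cell adds to the level there.

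The same end of the ranking held Il1rapl2, a member of the interleukin-1 receptor family, Dlg2, a synaptic scaffold, and Abcg3, a transporter, none of them a marker of an excluded lineage. Il1rapl2 averaged 3.90 CPM in member cells, 41.5 CPM in the other kept cells and 52.6 CPM in the Flt3-positive Mpo-low cells described below. Dlg2 averaged 8.97 CPM in member cells, 70.2 CPM in the other kept cells and 58.6 CPM in the Flt3-positive Mpo-low cells. Slc25a21, a mitochondrial carrier, averaged 0.122 CPM in member cells and 27.1 CPM in the other kept cells.

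**Figure D2:**
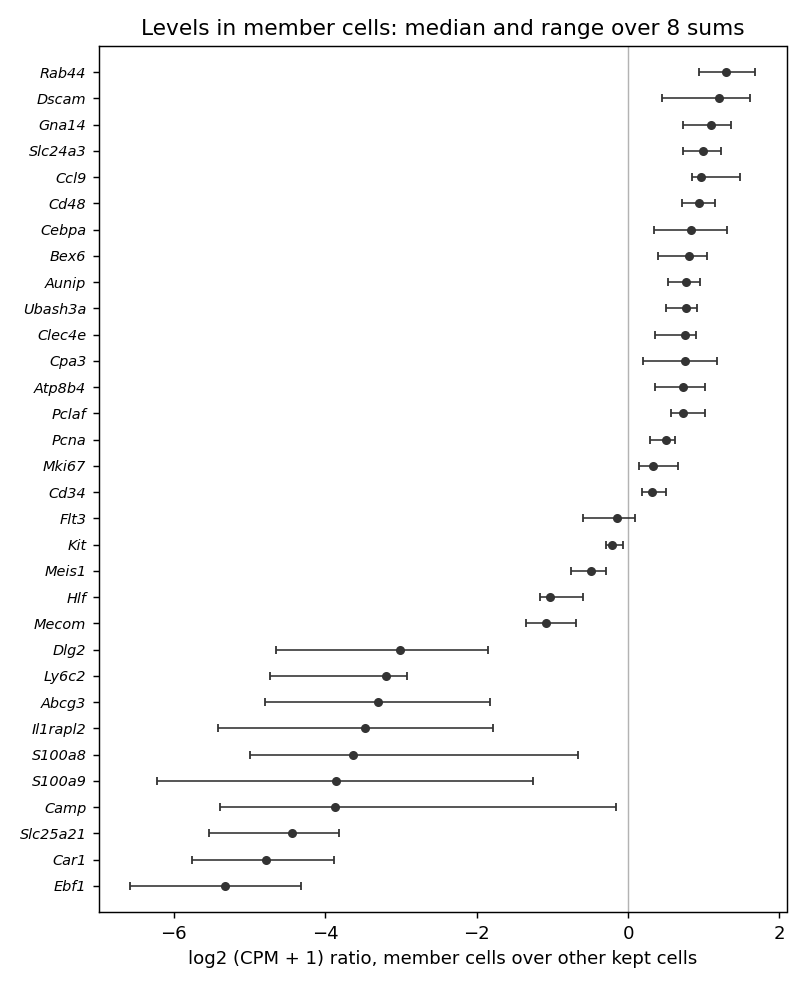
Log2 ratio of CPM + 1 in member cells over the other kept cells (horizontal axis) for the genes at both ends of the ranking and for 8 stem cell, progenitor and cell cycle genes. Points are medians and bars the range over 8 sums; Rab44 stands at 1.29 and Ebf1 at -5.33, and only the range of Flt3 crosses 0.

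Stem cell genes were lower but far from absent. Of 11 genes on the stem cell list that reached 20 CPM, none was higher and 10 were lower in all 8 sums, with a median log2 ratio of -1.03. Mecom, a transcription factor needed for stem cell maintenance, averaged 263.2 CPM in member cells and 547.1 CPM in the other kept cells. Hlf, a transcription factor of primitive progenitors, averaged 221.3 CPM in member cells and 423.6 CPM in the other kept cells. Mllt3, a maintenance factor that binds acetylated histones, averaged 96.3 CPM in member cells and 191.5 CPM in the other kept cells. Meis1, a Hox cofactor, kept more of its level, with 601.9 CPM in member cells and 847.4 CPM in the other kept cells. Procr, the stem cell surface receptor EPCR, averaged 12 CPM in member cells and 27.8 CPM in the other kept cells, and Slamf1 averaged 0.971 CPM in member cells and 5.50 CPM in the other kept cells.

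Of 10 multipotent progenitor genes at 20 CPM, 4 were higher (Cd34, Cd48 and Cd53 among them) and 3 lower (Kit, Ly6a and Sox4), with a median of 0.10. Flt3 averaged 258.8 CPM in member cells and 310.8 CPM in the other kept cells, with ratios of either sign over the 8 sums. Of 9 myeloid transcription factors, 5 were higher and 1 lower (median 0.11). Spi1, the gene of PU.1, averaged 147.6 CPM in member cells and 129.8 CPM in the other kept cells, and Runx1 averaged 886.5 CPM in member cells and 811.8 CPM in the other kept cells. Gfi1, a repressor needed for neutrophil formation, was lower, with 16.8 CPM in member cells and 20.4 CPM in the other kept cells. Myeloid cytokine receptors showed 3 of 10 higher, among them Csf3r, the G-CSF receptor, with 119.0 CPM in member cells and 97.6 CPM in the other kept cells, and 4 lower (median -0.18).

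The granule genes did not move as a block. Of 16 at 20 CPM, 4 were higher in all 8 sums (Mpo, Calr, Nkg7 and Serpinb1a) and 5 lower, with a median of -0.07. Calr, a chaperone through which myeloperoxidase folds, averaged 587.1 CPM in member cells and 470.2 CPM in the other kept cells. Prtn3, the gene of proteinase 3, averaged 364.8 CPM in member cells and 489.3 CPM in the other kept cells, which contain the granulocyte-committed cells. All 6 granulocyte genes at 20 CPM were lower, with a median of -3.86. Of 9 haem synthesis genes none was higher and 4 were lower (median -0.04); Alas1, the first enzyme of that pathway, averaged 28.7 CPM in member cells and 39.7 CPM in the other kept cells.

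Genes of growth and division were higher. All 19 G1/S genes at 20 CPM were higher in all 8 sums (median 0.49), among them Pcna, the replication clamp, with 262.2 CPM in member cells and 186.0 CPM in the other kept cells. Of 23 G2/M genes 12 were higher and none lower (median 0.29), and Mki67, the gene of the proliferation antigen Ki-67, averaged 585.3 CPM in member cells and 424.8 CPM in the other kept cells. Ribosome biogenesis and translation genes were higher in 14 of 16 (median 0.23), glycolysis genes in 6 of 13 with 1 lower (median 0.09), and Myc averaged 193.8 CPM in member cells and 152.0 CPM in the other kept cells. Protein folding and secretion genes were higher in 1 of 17 and lower in 1 (median 0.09).

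Restraining and immune genes were lower. Of 8 quiescence regulators 5 were lower and none higher (median -0.35); Txnip, which restrains glucose uptake, averaged 129.2 CPM in member cells and 217.4 CPM in the other kept cells. Cdkn1c, the gene of the cell cycle inhibitor p57, averaged 3.60 CPM in member cells and 11 CPM in the other kept cells, under the 20 CPM limit. Interferon response genes were lower in 8 of 9 (median -0.32), MHC class II genes in 5 of 6 (median -0.84) and immediate early genes in 6 of 8, with Myc the 1 higher (median -0.38).

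Lists of other lineages gave further values. Megakaryocyte-platelet genes were lower in 4 of 7 with 1 higher (median -0.50), erythroid genes in 3 of 4 (median -0.69), lymphoid progenitor genes in 3 of 5 (median -0.50), B-cell genes in 2 of 2 (median -0.36) and monocyte-dendritic genes in 1 of 4 with 1 higher (median -0.13). The summed level of the monocyte-dendritic list was 221.2 to 259.0 CPM in member cells and 243.8 to 315.2 CPM in the other kept cells. The only mast-basophil-eosinophil gene at 20 CPM was Cpa3, and the only T and NK gene was Nkg7, both higher. Among 3 chemokine genes 2 were higher, Ccl9 and the chemokine receptor gene Cxcr4, and 1 lower.

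Cell cycle activity was read per cell at equal depth, as the share of cells with at least 2 UMIs over the G2/M genes after thinning each cell to 3000 UMIs. It was 60.5% of 3109 member cells (exact 95% interval 58.8 to 62.3) and 35.6% of the other kept cells. The member cells of the tdTomato-positive tubes gave 60.4% and 59.4%, and those of the tdTomato-negative tubes 60.6% and 60.9%. A two-sided exact permutation of the tubes, not paired by mouse, gave p = 0.33, the smallest that 2 against 2 can give. The difference between the gates, -0.14 and -1.48 points in mouse 1 and mouse 2, was -3.74 and -5.37 points at 5000 UMIs and -2.45 and -4.23 points with at least 4 UMIs of the list. With GEM-X alone it was 1.36 and -0.20 points. Without thinning, 82.5% of member cells passed, and 15 member cells and 1020 other kept cells were too shallow to be thinned. Where the members were instead chosen after thinning, by at least 2 UMIs of Mpo in 3000, the share was 55.6% of 4175 cells and 35.4% of the remaining cells.

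The member cells were set beside 3 neighbouring sets of cells, cut by Flt3 and by genes of the rule, among them Mpo, Irf8 and Elane. The order of the sets in Mpo, and in genes that go with it, was therefore fixed in part by these cuts. Flt3-positive Mpo-low cells were taken as 7976 cells with at least 2 UMIs of Flt3, fewer than 5 of Mpo and none of Dntt, Il7r, Gata1 or Pf4. Irf8-high cells were 1005 with at least 3 UMIs of Irf8 and fewer than 5 of Elane, and granulocyte-committed cells were 401 with at least 5 UMIs of Elane and at least 1 of Ms4a3. Their median depths were 8022, 16664 and 26817 UMIs. Mpo averaged 824.4 CPM in member cells, 108.6 CPM in Flt3-positive Mpo-low cells, 877.8 CPM in Irf8-high cells and 5555 CPM in granulocyte-committed cells.

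Ctsg, the gene of the granule protease cathepsin G, averaged 183.3 CPM in member cells, 15.8 CPM in Flt3-positive Mpo-low cells, 346.5 CPM in Irf8-high cells and 2769 CPM in granulocyte-committed cells. Rab44 followed the same order, with 63.6 CPM in member cells, 10.6 CPM in Flt3-positive Mpo-low cells, 74.9 CPM in Irf8-high cells and 166.1 CPM in granulocyte-committed cells. Hlf ran the other way, with 221.3 CPM in member cells, 646.0 CPM in Flt3-positive Mpo-low cells, 79.0 CPM in Irf8-high cells and 32.4 CPM in granulocyte-committed cells. The share of cells in cycle was 27.2% in Flt3-positive Mpo-low cells, 67.8% in Irf8-high cells and 90.5% in granulocyte-committed cells.

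Some genes were highest in the member cells or nearly so. Slc24a3 averaged 218.1 CPM in member cells, against 107.0, 114.4 and 101.8 CPM in the Flt3-positive Mpo-low, Irf8-high and granulocyte-committed cells. Gna14 averaged 23.0 CPM in member cells and 6.26, 7.91 and 4.35 CPM in these 3 sets. Clec4e averaged 39.6 CPM in member cells and 28.2, 11.7 and 15.1 CPM in them. Slc24a3, Gna14 and Clec4e therefore did not follow the order of Mpo, and no test was made because the sets were cut by their own genes.

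**Figure D3:**
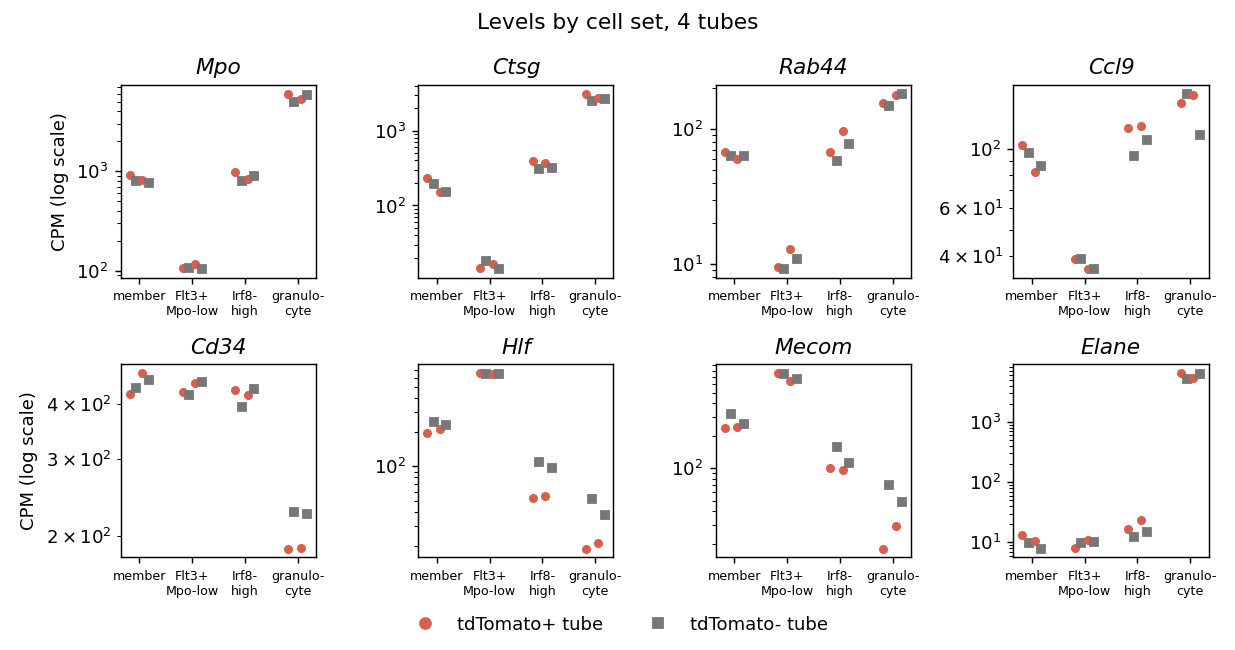
Level of 8 genes (CPM, log scale) in member cells, Flt3-positive Mpo-low cells, Irf8-high cells and granulocyte-committed cells, with 1 point per tube. Member cells lie above Flt3-positive Mpo-low cells for Mpo, Ctsg, Rab44 and Ccl9 and below them for Hlf and Mecom, while Cd34 is alike in the first 3 sets.

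The member cells were not uniform. They were split by their Mpo UMIs into 996 cells with 5 to 6, 849 with 7 to 9, 672 with 10 to 14 and 607 with 15 to 99, each tube holding at least 47 cells in each range. The median depth of these ranges also differed, at 10616, 11780, 13900 and 16965 UMIs, so the ranges carry depth as well as Mpo, and its part in what follows was not tested. Between the highest and the lowest range, 1463 of 7596 genes (19.3%) were higher in all 4 tubes and 1859 (24.5%) were lower, with a median log2 ratio of -0.03.

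Several granule genes, among them Ctsg, Prtn3, Calr, Plac8, Cst7 and Elane, were higher in the highest range than in the lowest in all 4 tubes. Nkg7 and Srgn were not. Nkg7 averaged 185.5, 181.9, 188.4 and 186.4 CPM over the 4 ranges, and Srgn, the gene of the granule proteoglycan serglycin, was lower at the high end in all 4 tubes (log2 ratio -0.18). Ctsg averaged 57.2, 89.5, 179.8 and 415.7 CPM over the 4 ranges, a log2 ratio of 2.84 between the highest and the lowest, and every tube showed the same order of its end values. Prtn3 averaged 266.6, 303.2, 345.7 and 545.5 CPM. Rab44 averaged 36.4, 46.8, 68.0 and 109.1 CPM, and Ccl9 averaged 68.1, 78.7, 95.2 and 130.0 CPM. Calr averaged 484.4 CPM in the lowest range and 753.3 CPM in the highest. Elane, held under 5 UMIs by the rule, averaged 7.25, 8.69, 8.93 and 17.4 CPM.

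Other genes with the largest increases were Mcpt8, a basophil protease (log2 ratio 2.41), Anxa3, an annexin of neutrophil granules (2.02), and Clec12a, a myeloid inhibitory lectin receptor (1.40). Irf8 and Csf1r were higher too. Irf8, whose UMIs were also capped by the rule, averaged 20.1 CPM in the lowest range and 38.3 CPM in the highest. Csf1r, the M-CSF receptor, averaged 3.86 CPM in the lowest and 8.42 CPM in the highest. A capped gene and a gene at a low level do not show whether the monocyte branch as a whole was higher, and that was not tested. Pclaf averaged 172.8 CPM in the lowest range and 326.1 CPM in the highest.

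Stem cell genes ran down over the same ranges. Mecom averaged 343.6, 297.3, 234.8 and 165.9 CPM, and Hlf averaged 287.5, 243.9, 209.9 and 133.9 CPM, both lower at the high end in all 4 tubes. Ly6a averaged 44.0 CPM in the lowest range and 13.2 CPM in the highest, and Kit averaged 340.4 CPM in the lowest and 258.5 CPM in the highest. Trpc6, a cation channel (log2 ratio -1.99), Sema3d, a semaphorin (-1.93), and Mycn (-1.65) were among the genes with the largest decreases. Cd34, with 442.0, 457.4, 451.0 and 421.6 CPM, and Flt3, with 273.5, 262.5, 260.1 and 239.4 CPM, did not move in 1 direction in all tubes.

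**Figure D4:**
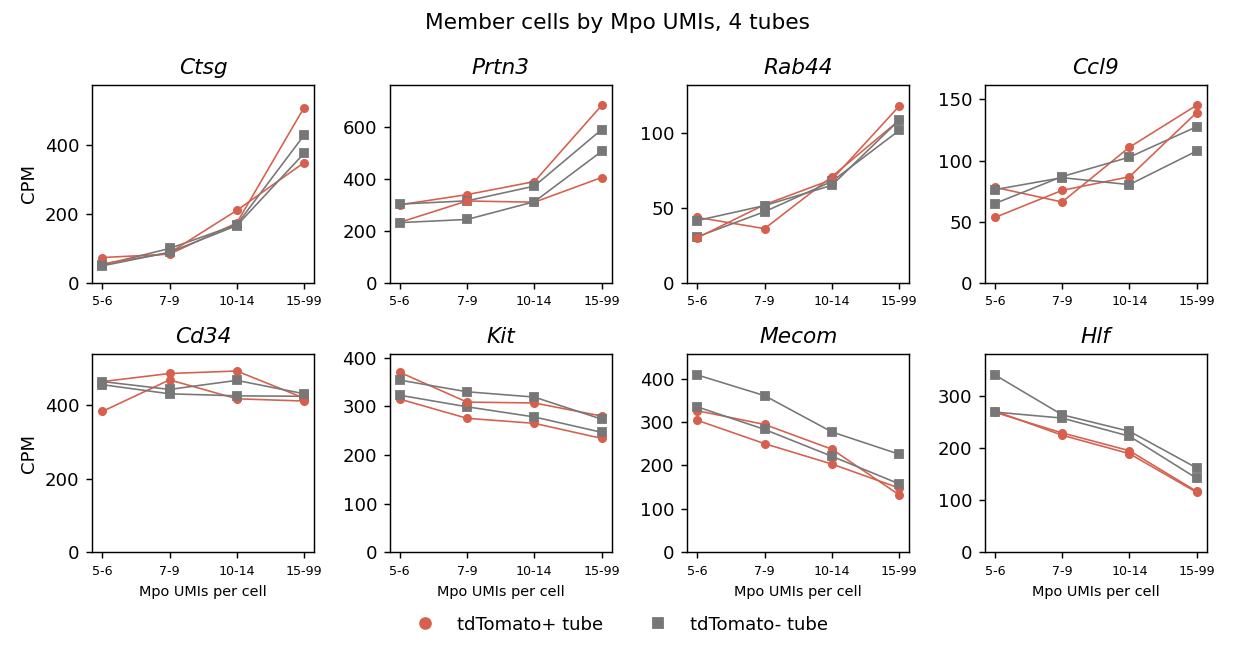
Level of 8 genes (CPM, vertical axes from 0) in member cells with 5 to 6, 7 to 9, 10 to 14 and 15 to 99 UMIs of Mpo, with 1 line per tube. Ctsg, Prtn3, Rab44 and Ccl9 are higher at the right end in all 4 tubes, Kit, Mecom and Hlf are lower, and Cd34 stays near 440 CPM.

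Between the gates, the member cells of tdTomato-positive tubes showed slightly less of the stem cell transcription factors Mecom and Hlf than those of tdTomato-negative tubes. The comparison asks whether cells labelled through Tppp3 in the first days of life differ from unlabelled cells of the same kind. Summed counts of the 4 tubes, with both chemistries added, were tested with edgeR's quasi-likelihood test with the mouse as a block. The chemistries did not give the same share of UMIs in each tube, and the fit had no term for this. Of 12581 genes tested, 17 (0.135%) passed an adjusted p of 0.05, with 8 higher (0.0636%) and 9 lower (0.0715%), and 615 had an unadjusted p under 0.05. The median log2 fold change of all tested genes was 0.001.

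These calls depended on the mouse block and on the test used. With no mouse block edgeR gave 0 calls, with 261 genes under an unadjusted p of 0.05. DESeq2 with the block also gave 0 (11 unadjusted). Fits that left out 1 tube were made without the mouse block and kept a single tube in a gate. A change in them cannot be laid to the tube alone. Gate fold changes given below without 1 tube come from such fits. GEM-X alone gave 5 calls and v3.1 alone 6.

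Mecom (chr3:29951296-30548008) had 238.5 and 239.2 CPM in the tdTomato-positive tubes of mouse 1 and mouse 2, against 315.7 and 259.2 CPM in the tdTomato-negative tubes. Both positive tubes lay below both negative tubes, and the log2 fold change was -0.26 ± 0.04 (SE, n = 2 tubes per gate, edgeR adjusted p = 3.68e-06). In the fits without the block it was -0.10 without the tdTomato-negative tube of mouse 1 and -0.41 without that of mouse 2. Hlf (chr11:90336536-90390895) had 195.5 and 212.8 CPM in the tdTomato-positive tubes, against 247.3 and 229.8 CPM in the tdTomato-negative tubes (log2 fold change -0.22 ± 0.05, edgeR adjusted p = 0.00131). Both were lower in the tdTomato-positive tube in each mouse and in each chemistry. They were the 2 called among 14 tested stem cell genes (0 higher), whose median log2 fold change was -0.08. Without cells of a high doublet score Mecom had -0.16 (adjusted p = 0.176) and Hlf -0.12 (adjusted p = 0.677).

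Mpo had 913.4 and 818.8 CPM in the tdTomato-positive tubes, against 793.4 and 772.0 CPM in the tdTomato-negative tubes. The groups did not overlap, and the log2 fold change was 0.15 ± 0.03. The cells were chosen by their Mpo UMIs, so this is a description, and its place among the 17 calls supports nothing. It was positive in mouse 1 with both chemistries and in mouse 2 with v3.1, and -0.01 in mouse 2 with GEM-X. No other of the 16 tested granule genes was called, and their median was 0.08. Ctsg had 232.8 and 151.7 CPM in the tdTomato-positive tubes and 195.8 and 152.8 CPM in the tdTomato-negative tubes, and did not pass (edgeR adjusted p = 0.434). Of 14 myeloid transcription factors tested none passed, and their median was 0.08.

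Fut8, the enzyme that adds core fucose to glycoproteins, had 792.9 and 921.6 CPM in the tdTomato-positive tubes, against 757.8 and 803.9 CPM in the tdTomato-negative tubes (log2 fold change 0.14 ± 0.03, edgeR adjusted p = 0.0033). Jun, an AP-1 transcription factor induced by stress and cell handling, had 64.55 and 43.5 CPM in the tdTomato-positive tubes, against 46.91 and 38.44 CPM in the tdTomato-negative tubes (0.36 ± 0.09, edgeR adjusted p = 0.0199), and without the tdTomato-positive tube of mouse 1 its fold change was -0.001. Jun was the 1 call among 15 immediate early genes tested, whose median was 0.01.

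Palld, an actin scaffold, had 8.78 and 9.14 CPM in the tdTomato-positive tubes, against 15.37 and 14.15 CPM in the tdTomato-negative tubes (log2 fold change -0.72 ± 0.17, edgeR adjusted p = 0.0278). Samd12 had 84.85 and 83.28 CPM in the tdTomato-positive tubes, against 106.5 and 94.81 CPM in the tdTomato-negative tubes (-0.26 ± 0.06, edgeR adjusted p = 0.0411). In both genes the positive tubes lay below the negative tubes.

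Gt(ROSA)26Sor is a non-coding gene whose locus commonly carries such reporters. It (chr6:113067428-113077333, minus strand) had 20.12 and 19.03 CPM in the tdTomato-positive tubes, against 30.11 and 25.55 CPM in the tdTomato-negative tubes. The log2 fold change was -0.51 ± 0.12 (edgeR adjusted p = 0.0339), negative in both mice with both chemistries. It was not particular to the member cells: the other kept cells gave -0.44 in mouse 1 and -0.54 in mouse 2. The annotation lists it as antisense, and whether reads of the gene it overlaps entered its count was not tested. Tppp3, which drives the Cre, had 0.183 and 0.989 CPM in the tdTomato-positive tubes and 0.317 and 0.222 CPM in the tdTomato-negative tubes.

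The other 9 called genes fell outside the rule for naming and are named here after their values were seen. Cpa3 had 68.76 and 69.45 CPM in the tdTomato-positive tubes, against 49.76 and 58.14 CPM in the tdTomato-negative tubes (0.38 ± 0.08, edgeR adjusted p = 0.00138), but with v3.1 it was lower in mouse 2. Il1rapl2 (-2.37), Dlg2 (-1.05), Airn (-1.34) and St18 (-1.04) each averaged under 10 CPM and were lower in the tdTomato-positive tube of both mice. Il1rapl2 had no UMI in the tdTomato-positive tube of mouse 2, and its fold change was -1.31 without the tdTomato-negative tube of mouse 1. Without cells of a high doublet score Il1rapl2 had -1.21 (edgeR adjusted p = 0.684), Dlg2 -0.62 (0.719) and Airn -0.68 (0.946). Dlg2 had -0.31 without the tdTomato-negative tube of mouse 1. Gm42418, a model over ribosomal RNA sequence (0.10), and Cmss1 (0.12) passed with small changes. In mouse 1 the log2 ratio of Cmss1 was 0.108 over both chemistries, 0.030 with GEM-X and -0.067 with v3.1. That of Gm42418 was 0.104, 0.002 and -0.096 in the same order. How far the mix of chemistries in the sums entered these calls was not tested. Cd74 owed 125 of its 140 UMIs in the tdTomato-positive tube of mouse 2 to 1 cell, and Ccl5 owed 70 of its 83 UMIs in that of mouse 1 to 1 cell.

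**Figure D5:**
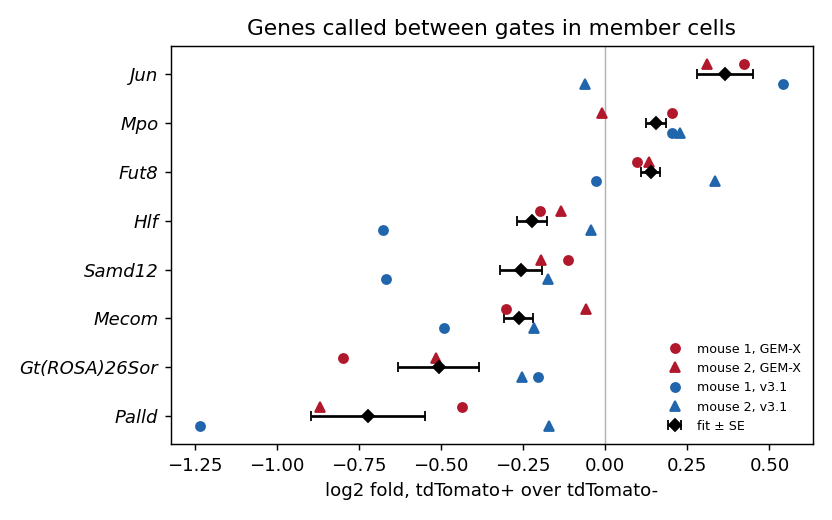
Log2 fold change between tdTomato-positive and tdTomato-negative tubes (horizontal axis) for the 8 named genes, with the fitted value and its SE as black diamonds, GEM-X in red, v3.1 in blue, circles for mouse 1 and triangles for mouse 2. Mecom, Hlf, Palld, Samd12 and Gt(ROSA)26Sor lie left of 0 in each mouse and chemistry, while Mpo, Fut8 and Jun each have 1 point at or left of 0.

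No gate difference was called particular to the member cells. A fit over the member cells and the other kept cells of the 4 tubes, with the tube as a block, tested whether the gate difference differed between the 2 sets of cells. Of 14886 genes tested by edgeR, 0 were called (0%), with 412 below 0.05 before adjustment, and by DESeq2 likewise 0 (46 before adjustment). For Mecom the difference of gate differences was -0.20 ± 0.11 (SE) and for Hlf -0.13 ± 0.09, both with an edgeR adjusted p of 1. Without the tdTomato-negative tube of mouse 1 the fit called 43 genes, and without a low-count filter 14.

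Between the chemistries, the member cells of the same tubes gave different levels for many genes. Of 11810 genes tested with edgeR and the tube as a block, 7215 (61.1%) were called, 3690 higher with GEM-X (31.2%) and 3525 lower (29.8%). A change of at least 2-fold was seen in 567 of them, 273 higher and 294 lower. Under upper quartile scaling the split was 3133 higher and 4106 lower. DESeq2 with the tube block called 4873 of 11810 genes (41.3%), and edgeR with no low-count filter called 7164 of 19727 (36.3%). The chemistries also differ in the Cell Ranger version in the file headers, and both were single libraries, so chemistry, library and software cannot be told apart.

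The marker genes were compared first. Mpo, which chose the cells, had 905.1 and 753.3 CPM with GEM-X in the tdTomato-positive tubes and 785.1 and 757.8 CPM in the tdTomato-negative tubes, against 928.9, 935.9, 806.0 and 799.4 CPM with v3.1 in the same order of tubes. Its log2 fold change, a description here, was -0.12 ± 0.03, and 0.04 where members were chosen at equal depth. Ccl9 was lower with GEM-X in 4 of 4 tubes, with a log2 fold change of -0.38 ± 0.06 and an adjusted p of 3.15e-09 by edgeR. Slc24a3 had -0.10 ± 0.04 (edgeR adjusted p = 0.0351), with no common direction over the tubes. Its log2 ratio was -0.11 and 0.13 in the tdTomato-positive tubes of mouse 1 and mouse 2, and 0.05 and -0.28 in the tdTomato-negative tubes. Slc24a3 missed the threshold without the tube block, under DESeq2 and without a low-count filter. It also missed it without either the tdTomato-positive tube of mouse 1 or the tdTomato-negative tube of mouse 2 (-0.003). Flt3 did not pass (-0.05 ± 0.04, adjusted p = 0.275), though it did under upper quartile scaling (adjusted p = 0.00863) and without the tdTomato-negative tube of mouse 1 (0.0257).

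Kit was higher with GEM-X by 0.46 ± 0.04 on the log2 scale. Mki67 had 716.6 to 851.2 CPM with GEM-X and 205.5 to 285.9 CPM with v3.1 (1.63 ± 0.03). Elane, capped by the rule and so a description, had -1.19 ± 0.16, and -0.11 where members were chosen at equal depth.

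The naming rule gave 10 genes in each direction, among them Mki67 and Elane. Il31ra, a cytokine receptor gene, had 108.6 to 121.3 CPM with GEM-X and 3.91 to 6.27 CPM with v3.1 (log2 4.33 ± 0.10). Lars2, a mitochondrial leucyl-tRNA synthetase, had 683.2 to 726.0 CPM with GEM-X and 35.4 to 43.5 CPM with v3.1 (4.19 ± 0.05). Camk1d (3.07), Cmss1 (2.83), Coro1b (2.34), Tgtp2 (2.25, with a near copy in Tgtp1), Zfp758 (1.85), AY036118 (1.78) and Hmgn2 (1.68) were the next. The lowest with GEM-X were Lrrc4 (-2.34), Snhg9 (-1.93), Cdk2ap1 (-1.88), Cd74 (-1.59), Hypk (-1.41), Tmsb15b2 (-1.29, with a near copy in Tmsb15b1), Phpt1 (-1.20), Elane, Ctxn1 (-1.18) and Atg16l2 (-1.12). Cd74 had 87.59 CPM with v3.1 in the tdTomato-positive tube of mouse 2, where 1 cell held most of its UMIs, and 12.01 to 14.75 CPM with v3.1 in the other 3 tubes.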

How the data were processed

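Gene and hashtag UMIs were measured in 4 libraries that arrive as 2 matrices, 1 per chemistry, assigned to a chemistry by their names. The deposited values are raw UMI counts per gene and barcode; per the file headers the GEM-X matrix was made by Cell Ranger 8.0.1 and the v3.1 matrix by 7.1.0. The submitters' processing notes name Cell Ranger 7.0.0 and mm10. The sources used here do not say whether counting used strand.

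Cells were filtered and assigned to tubes by hashtag as described in the report, which removes doublets between tubes. Scrublet (scanpy 1.11.5) marked 0 cells at its automatic threshold and so did not work; doublets within a tube remain. Counts of member cells were summed per tube (and chemistry) and tested with edgeR 4.0.16 (filterByExpr, TMM, quasi-likelihood test, dispersions at least 1e-04, Benjamini-Hochberg adjustment over all genes tested, threshold 0.05). Same-numbered tubes come from 1 mouse, which is the block; their deviations correlated across 9088 genes (r = 0.484, Spearman's rho = 0.326; genes are not independent replicates). DESeq2 1.42.0 was an alternative. The pseudocount for levels was 1 CPM.

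Genes are named by rule: for gates and chemistries up to 10 in each direction with the largest called change, at least 10 CPM on average and 1 sign in both mice and both chemistries (all 4 tubes for chemistries); for levels up to 15 highest and 10 lowest ratios with 1 sign in all 8 sums; the genes of the selection rule with Ccl9, Slc24a3, Tppp3 and Gt(ROSA)26Sor; and up to 5 members of each list with the highest level. Unnamed gene models and ribosomal protein, histone, haemoglobin and mitochondrial genes were skipped in the ranked picks. Other list members given are named to show what a count holds. The members and the gene lists were chosen with earlier results of these data known. Symbols matched the GENCODE annotation for 99.6% of 32285 genes. The tdTomato transcript was not analysed here. The main edgeR fits were run on simulated counts with the same dispersion for all genes and no mouse or tube effect. That check does not cover spread between mice. Some items are not reported here.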

Additional observations from a re-analysis of the deposited data

Results flagged for a closer look

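For Ccl5, Cd74 and Cmss1, called between gates in the member cells, both mice lay on one side with GEM-X and on the other with v3.1, and none of these differences was tested. Ccl5, a chemokine gene, had a log2 ratio between the tdTomato-positive and the tdTomato-negative tube of 2.07 in mouse 1 and -1.03 in mouse 2. Its mean over mice was 1.56 with GEM-X and -1.51 with v3.1. Cd74, the MHC class II invariant chain gene, had 1.84 in mouse 2 and -0.003 in mouse 1, and its mean over mice was -0.107 with GEM-X and 1.27 with v3.1. In 1 tdTomato-positive tube, 1 cell held most of that tube's UMIs of the gene, as given above. Cmss1 had a mean of 0.100 with GEM-X and -0.065 with v3.1. Its level was 1398 to 1711 CPM with GEM-X and 200 to 230.9 CPM with v3.1. Other called genes turned in 1 mouse and chemistry: Cpa3 had -0.18 in mouse 2 with v3.1, Gm42418 -0.10 in mouse 1 with v3.1 and Dlg2 0.38 in mouse 2 with GEM-X.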

How the results depend on the processing

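The share of member cells over all tubes was 9.45% and became 14.8% with at least 3 UMIs of Mpo, 3.87% with at least 10, 9.86% with at least 2000 genes, 13% when cells were thinned first, 10.4% with GEM-X only and 8.25% with v3.1 only; it kept within its interval under the other settings. The 17 gate calls became 0 with no replicate block, 0 with DESeq2, 5 with GEM-X only and 6 with v3.1 only. They became 9 with at least 10 UMIs of Mpo. Upper quartile scaling, other size factors, no filter and no dispersion limit gave 16 or 17. Gate fits without 1 tube also lacked the mouse block, so their counts are not compared. Reversed gate values were Cd74 at -0.087 with GEM-X only, Cmss1 at -0.047 with v3.1 only, and, without the tdTomato-positive tube of mouse 1, Ccl5 at -1.21 and Jun at -0.001; leaving out 1 tube at a time these ranged up to 2.185 for Ccl5 and 0.618 for Jun. The 0 calls of a gate difference particular to the member cells became 14 with no filter on low counts and 0 to 43 when 1 tube was left out. The 7215 chemistry calls ranged over 5917 to 7015 when 1 tube was left out, were 6417 with no replicate block and 4873 with DESeq2; Mpo reversed to 0.041 with members chosen at equal depth. The share in cycle of 60.5% became 69.3% at 5000 UMIs, 46.1% with at least 4 UMIs, 58.6% with v3.1 only, 82.5% unthinned and 55.6% with members chosen after thinning. The cause was not tested. Of 130 values of named levels under alternatives, 91 moved by less than their spread over sums, 39 by more and none reversed. The 3 alternatives below were chosen after seeing the data: a doublet cut at the median Scrublet score of cells with 2 hashtags (used because the automatic threshold marked no cell, so the planned one gave no value), members chosen after thinning for levels and cycle, and the unthinned cycle share. The doublet cut gave 13 gate calls, 10 higher and 3 lower, of which 10 were among the 17. The smallest sum, 1449914 UMIs over 131 cells, limits what can be seen in the tdTomato-positive tubes.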

Other observations

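Cells that met every other condition but held Dntt numbered 512 with 1 UMI and 662 with 2 or more. The corresponding numbers for Ms4a3 were 373 with 1 UMI and 111 with 2 or more, and for Pf4 they were 159 and 15.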
